A study of Mus musculus with 6 samples.

Results

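Vascular smooth muscle cells of mouse inguinal white adipose tissue (iWAT) were picked from droplet single-cell RNA sequencing of its stromal vascular fraction, the cells that remain once the adipocytes are removed. A barcode, which stands for 1 captured cell, was taken as a smooth muscle cell when it met every limit of a rule on UMIs (unique molecular identifiers, each marking 1 captured transcript). It had at least 1000 UMIs, under 10% of them mitochondrial, at least 2 UMIs of Myh11, at least 10 of Acta2 and Tagln together, and at most 1 of Kcnj8 and Higd1b together, which are genes of pericytes. It also had fewer than 30 Dcn UMIs per 10000, which leaves out fibroblasts, and at most 1 UMI of the endothelial and immune genes Cdh5, Pecam1 and Ptprc together. The rule found 1188 smooth muscle cells among 68103 barcodes, of which 61195 passed the limits on UMIs and mitochondrial share. These genes chose the cells, so their values are descriptions with no test.

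The study asked how aging changes the response of iWAT to cold exposure. Male C57BL/6 mice, young (9 weeks) or aged (57 weeks), were kept at 30 °C (thermoneutrality, TN), or moved to 6 °C for the final 3 days (3D cold) or 14 days (14D cold), after a common period at 30 °C and singly housed at the end. Live DAPI- cells were sorted and CD45+ immune cells removed. There were 6 libraries, 1 for each age and temperature, and the number of mice behind a library is not given in the sources used here, beyond a general statement in the methods that mice were kept separate unless said otherwise. Mice came from either of 2 suppliers, and which supplier served which library is not given either, so the part of supplier was not tested. The p-values below take these 6 libraries as units, and no age and temperature has a second library. The spread behind the edgeR p-values is what the terms of the fit leave over, combined with spread pooled over genes. It is not a spread between repeats of a condition.

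Smooth muscle cells wrap arteries, arterioles and larger veins and set their diameter. Calcium binds calmodulin, which turns on myosin light chain kinase (encoded by Mylk), and phosphorylated myosin (Myh11, Myl9) pulls on smooth muscle actin (Acta2); myosin phosphatase reverses this. Sympathetic nerves, which drive the response of fat to cold, act on these cells through receptors for noradrenaline, ATP and neuropeptide Y. Smooth muscle cells also make the basement membrane and elastic fibres of the vessel wall, and their contractile genes are switched on by serum response factor and its partner myocardin, which bind DNA at CArG boxes.

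CArG boxes were looked for in the 250 bases before each gene's start, and 2 of these windows are shown because they hold one: that of Myl9, which encodes the regulatory light chain of myosin, and that of Trpv1, which encodes a heat- and capsaicin-gated channel and differed between temperatures below. The sequences are RefSeq's for GRCm38.p6, both on the + strand, with the box in capitals, and distances are to the start of RefSeq's transcript; the Trpv1 span given further below is that of the GENCODE annotation, which starts downstream of it. The Myl9 window is chr2:156775214-156775463, and its box starts 161 bases before that start. The Trpv1 window is chr11:73233899-73234148, and its box starts 196 bases before that start.
Myl9: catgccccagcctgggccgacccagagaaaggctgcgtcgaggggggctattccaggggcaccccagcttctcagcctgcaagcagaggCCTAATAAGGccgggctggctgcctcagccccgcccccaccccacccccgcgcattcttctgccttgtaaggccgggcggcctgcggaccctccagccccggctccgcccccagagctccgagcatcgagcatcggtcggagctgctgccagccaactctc
Trpv1: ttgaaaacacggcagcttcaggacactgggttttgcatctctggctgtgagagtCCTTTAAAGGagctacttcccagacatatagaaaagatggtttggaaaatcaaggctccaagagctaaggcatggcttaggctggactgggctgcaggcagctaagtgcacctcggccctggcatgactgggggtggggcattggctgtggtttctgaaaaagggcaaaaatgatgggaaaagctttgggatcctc
The search covered both strands, since the pattern of a CArG box is its own reverse complement. Of 36 contractile genes with a window, 6 held a box (Actg1, Cnn2, Ldb3, Myl6, Myl9 and Vcl), as did 1 of 39 receptor genes, 1 of 20 calcium and channel genes (Trpc6) and 1 of 24 matrix genes (Lama2). Of all 27025 genes with a window, 439 (1.62%) held one. A match is a description of the sequence, and a window without one says nothing about the factor.

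The cells carried the smooth muscle genes the rule did not use. Lmod1, which encodes the actin nucleator leiomodin 1 (chr1:135324807-135368065), stood at 633, 551 and 580 CPM (UMIs of the gene per 1000000 UMIs summed over the smooth muscle cells of a library) in the young TN, 3D and 14D libraries. In the aged libraries, in the same order, it stood at 603, 643 and 732 CPM. When every cell was thinned to 1000 UMIs, so that depth was equal, 44.0% of smooth muscle cells held a Lmod1 UMI, against 15.7% of pericytes and 0.567% of fibroblasts, which serve as the background. Unthinned, 91.1% of smooth muscle cells held one. Myocd, the gene of myocardin, was found in 6.65% of thinned smooth muscle cells, 0.581% of pericytes and 0.0333% of fibroblasts. Des, the gene of the muscle intermediate filament desmin, was found in 52.0%, 31.8% and 1.37%.

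Of 12 smooth muscle markers, all 12 were detected. The 9 that the rule did not use summed to between 7442 and 8523 CPM in the smooth muscle cells of the 6 libraries, between 2944 and 5340 in pericytes, between 87.0 and 149 in fibroblasts and between 306 and 513 in endothelial cells. With Acta2, Tagln and Myh11, whose levels the selection sets, the sum in smooth muscle cells was between 27921 and 34731 CPM. Leaving out Cdh5, Pecam1 and Ptprc, which the rule caps, 4 endothelial markers summed to between 1.16 and 11.0 CPM and 4 immune markers to between 18.6 and 40.5 in the smooth muscle cells. Schwann cell markers summed to at most 4.39, skeletal muscle markers to at most 4.56 and red blood cell markers to at most 12.1 in the smooth muscle cells. Epithelial markers, led by Krt14, summed to 13.2 CPM in the aged TN and 1.16 in the young 14D library, and were at 0 in the others. Fibroblast markers were higher: the 6 beside Dcn, led by Gsn and with none at 0, summed to 1693, 2123 and 2415 CPM in the young TN, 3D and 14D libraries and to 1667, 2500 and 2090 CPM in the aged ones. In fibroblasts the same genes summed to between 27865 and 46153 CPM. The 6 pericyte markers beside Kcnj8 and Higd1b summed to between 1411 and 2126 CPM in the smooth muscle cells, against between 4105 and 7248 in pericytes. Of 4 adipocyte markers 2 were detected, led by Fabp4, which endothelial cells and pericytes hold at higher levels, and they summed to between 6103 and 10031 CPM. The other two, Adipoq and Cidec, were at 0 in the smooth muscle cells of all 6 libraries.

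**Figure D1:**
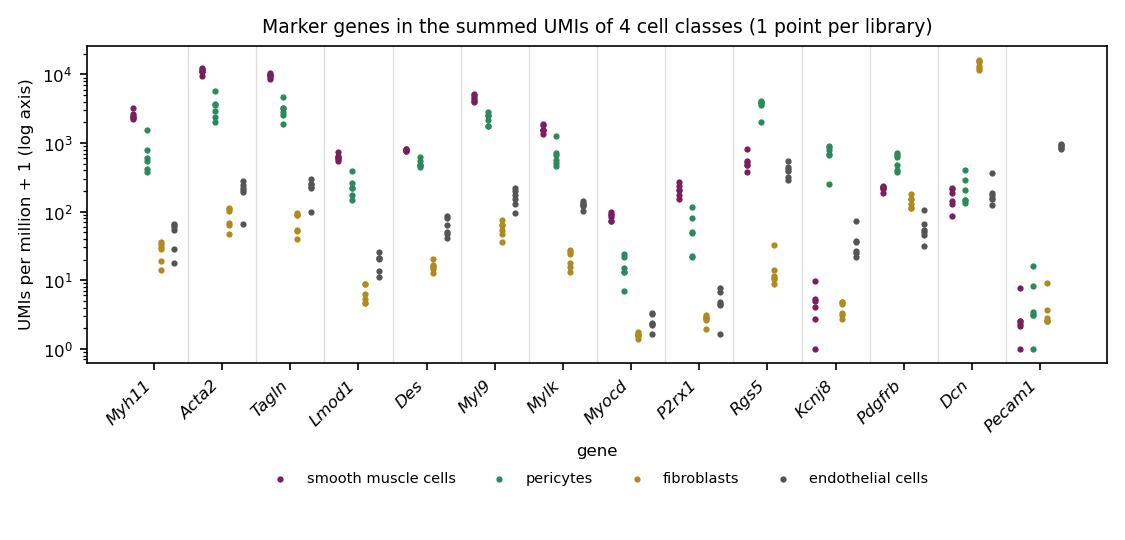
Levels of 14 marker genes (CPM plus 1, log axis) in the summed UMIs of smooth muscle cells, pericytes, fibroblasts and endothelial cells, with 1 point for each of the 6 libraries. Lmod1, Des, Myl9, Mylk, Myocd and P2rx1 and the pericyte genes Rgs5 and Pdgfrb were not used to choose the cells, and Myh11, Acta2, Tagln, Kcnj8, Dcn and Pecam1 were.

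Genes were ranked by their lowest ratio of smooth muscle cells over pericytes across the 6 libraries, with the worth of 1 pericyte UMI added to both levels, as a description, because the classes were cut from the same counts. Crispld2, which encodes a secreted protein, led with 1610 CPM in smooth muscle cells and 379 in pericytes, at ratios between 2.87 and 7.99. Sorbs2, the gene of a cytoskeletal adaptor, followed with 403 and 98.6 CPM, and Rgs7bp, which anchors regulators of G protein signalling to the membrane, with 168 and 30.1. Pnpla2, the gene of adipose triglyceride lipase, was also among the 15 highest, at 468 and 140 CPM. On the pericyte side, beyond the rule's own Kcnj8 and Higd1b, Abcc9, the sulfonylurea receptor subunit that pairs with the Kcnj8 channel, was at 12.1 CPM in smooth muscle cells and 508 in pericytes.

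Among themselves, the smooth muscle cells differed most in a few genes. Over cells thinned to 1000 UMIs, the variance divided by the mean of the UMI count had a median of 0.895 over 1030 genes, taking for each gene its lowest library. It was at least 12.4 for the nuclear RNA Malat1. For Rgs5, a regulator of G protein signalling that marks mural cells, it was between 3.78 and 4.57, and 18.4% of the thinned cells held an Rgs5 UMI, with a median of 0 and a 90th percentile of 2. For Fos, an immediate early gene, it was between 3.54 and 6.32, and for Fabp4, the fatty acid binding protein 4 gene, between 3.52 and 6.82. Acta2, a gene of the rule, was found in 99.9% of the thinned cells.

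Cells of aged libraries held fewer UMIs, in smooth muscle cells as in pericytes, in fibroblasts and over all barcodes, where every aged median was also below every young one; in endothelial cells the medians overlapped. Median UMIs per smooth muscle cell were 7005, 6679 and 5905 in the young TN, 3D and 14D libraries and 5160, 5551 and 5494 in the aged ones, so every aged library was below every young one. The mean of the medians was 6530 ± 565 (SD, n = 3) in young and 5402 ± 211 (SD, n = 3) in aged libraries, with a two-sided exact permutation p of 0.1, the smallest that 3 against 3 allows. Summed over cells, 2330060, 908634 and 858718 UMIs stood behind the young values and 1971568, 642129 and 455103 behind the aged ones. The aged 14D library had the lowest median over all its barcodes, 2588 UMIs, and its 82 smooth muscle cells did not share that. No barcode of a smooth muscle cell was shared between libraries.

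Mitochondrial share sat close to the rule's limit. Its median over smooth muscle cells lay between 7.80% and 8.50% in the 6 libraries, against 4.58% to 5.87% in pericytes and 1.85% to 2.90% in fibroblasts. A further 1275 barcodes met every limit but the mitochondrial one, 1204 of them at 10 to 20%. In young TN, 3D and 14D these were 212, 222 and 229, beside 337, 138 and 143 cells kept. For the aged libraries they were 330, 191 and 91, beside 375, 113 and 82 kept. The mitochondrial limit thus left out more than were kept in every cold library, and fewer in both TN libraries. Just inside the limit, at 9 to 10%, lay 334 cells, and just outside, at 10 to 11%, lay 247 barcodes. At exactly 2 Myh11 UMIs there were 54 cells, and 58 barcodes were left out at exactly 1; at exactly 1 UMI of Kcnj8 and Higd1b there were 309 cells, and 133 barcodes were left out at exactly 2. For this reason results are also given with the limit at 20%, a setting chosen after seeing the data.

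Smooth muscle cells took a smaller share of barcodes after cold exposure at both ages. They were 337 of 9084 barcodes past the UMI and mitochondrial limits in the young TN library, 3.71% (exact binomial 95% interval 3.33 to 4.12), and 375 of 10084 in the aged TN library, 3.72% (3.36 to 4.11). In the cold libraries they were 1.33% (1.12 to 1.57) of young 3D, 1.28% (1.08 to 1.51) of young 14D, 1.08% (0.891 to 1.30) of aged 3D and 0.821% (0.653 to 1.02) of aged 14D barcodes. The intervals cover counting error only. All 4 cold libraries lay below both TN libraries. With the limit at 20% mitochondrial UMIs the shares were 5.60% and 6.52% at TN and 3.27%, 3.07%, 2.67% and 1.62% in the cold libraries, so both TN libraries again stood above all 4 cold libraries.

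The mean share was 3.71% ± 0.00632 (SD, n = 2) at TN and 1.13% ± 0.230 (SD, n = 4) in cold, a comparison chosen after seeing the data, with a two-sided exact permutation p of 0.133, the smallest that 2 against 4 libraries allows. By age the means were 2.11% ± 1.39 (SD, n = 3) in young and 1.87% ± 1.60 (SD, n = 3) in aged libraries (two-sided exact permutation p = 0.6). This spread and this permutation take in the temperatures without matching them. Young and aged shares were 3.71% and 3.72% at TN, 1.33% and 1.08% at 3D and 1.28% and 0.821% at 14D. Against pericytes of the same libraries, there were 449 and 332 smooth muscle cells per 100 pericytes at TN (young and aged) and between 124 and 195 in the cold libraries. Per 100 endothelial cells there were 54.3 and 27.7 in young and aged TN and at most 22.9 in the 4 cold libraries. Pericytes themselves were 0.826% and 1.12% of barcodes at TN and between 0.420% and 0.931% in cold. Endothelial cells were 6.84% and 13.4% of barcodes at TN, 5.80% and 6.74% in young 3D and 14D and 7.18% and 4.31% in aged 3D and 14D. Fibroblasts, the bulk of every library, were 83.3% and 73.0% at TN and between 85.4% and 88.7% in cold. Dissociation was not measured, so fewer smooth muscle cells in the tissue and fewer recovered from it cannot be told apart.

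**Figure D2:**
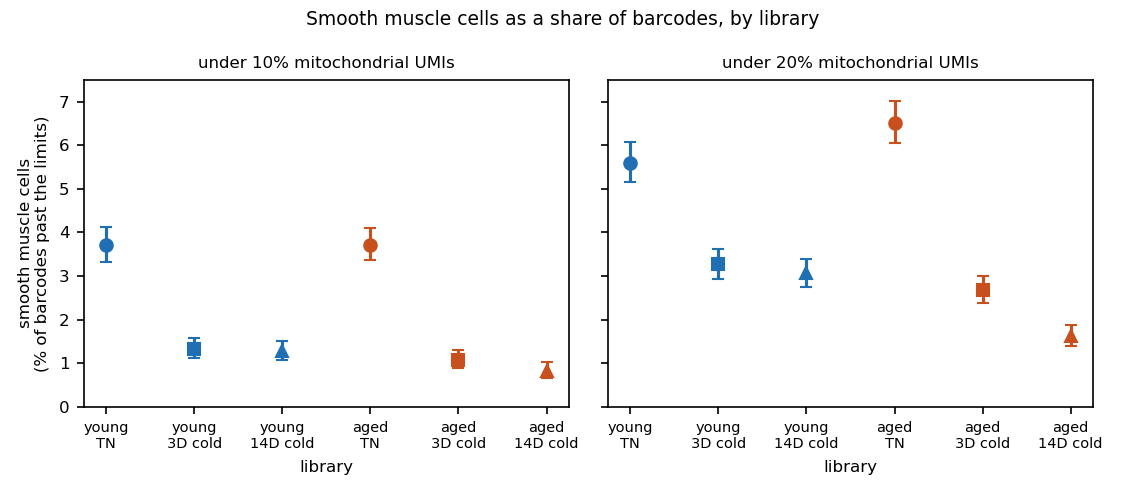
Smooth muscle cells as a percentage of barcodes past the limits in each library, with the mitochondrial limit at 10% (left) and 20% (right). Points are libraries and bars are exact binomial 95% intervals; both TN libraries stand above all 4 cold libraries in both panels.

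To compare ages, UMIs were summed over the smooth muscle cells of each library and edgeR's quasi-likelihood F test, which had temperature as a term, was run on the 3 young and 3 aged totals with Benjamini-Hochberg adjustment over 7649 genes tested. In aged smooth muscle cells 9 of 31 collagen and basement membrane genes fell and a collagen gene outside that list, Col27a1, rose, while 1 of 25 filament genes and none of 13 myosin genes passed. At an adjusted p under 0.05, 229 genes (2.99%) differed with age, 150 higher (1.96%) and 79 lower (1.03%) in aged. The aged and young libraries did not overlap for 1318 genes (17.2%).

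Contractile genes showed small differences between ages. Acta2 was at 12461, 11304 and 11821 CPM in the young TN, 3D and 14D libraries and at 10790, 9623 and 11022 in the aged ones, and Tagln, an actin-binding protein gene, at 10555, 9805 and 9864 against 9290, 8589 and 9706. Myh11 was at 3193, 2611 and 2316 against 2413, 2252 and 2439 CPM. The ages did not overlap for Acta2 and Tagln, both lower in aged, and overlapped for Myh11. These 3 genes chose the cells, so no test of them is given. Of 25 other thin and intermediate filament genes tested, 1 fell and none rose past the threshold, beside 1.03% and 1.96% of all genes. The median log2 fold change was -0.03 beside 0.00 over all genes. The one that fell was Itga7, the integrin that ties smooth muscle to laminin, at 163, 190 and 164 CPM in young and 140, 104 and 98.9 in aged libraries (log2 fold change -0.49 ± 0.13 SE, edgeR adjusted p = 0.0281). Lmod1 had a log2 fold change of 0.16 ± 0.09 SE (edgeR adjusted p = 0.409). None of 13 genes of myosin and its regulation, Myh11 left out, passed (median 0.02). The Itga7 call was lost without any 1 of the 4 cold libraries, and the change ran from -0.36 to -0.79.

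Of 25 calcium and ion channel genes, Kcna5 fell. It encodes a voltage-gated potassium channel of vascular muscle and stood at 161, 144 and 147 CPM in young and 114, 106 and 92.3 in aged libraries (log2 fold change -0.50 ± 0.12 SE, edgeR adjusted p = 0.0183). Of 16 tested receptor genes, P2rx1, the ATP-gated channel through which sympathetic ATP acts, fell from 266, 205 and 239 to 174, 150 and 207 CPM (log2 fold change -0.44 ± 0.11 SE, edgeR adjusted p = 0.0207). Its lowest young value, 205, lay below its highest aged value. Of 21 transcription regulators of smooth muscle, 1 rose and 3 fell, beside 1.96% and 1.03% of all genes. Foxf1, a forkhead factor of mesenchyme, rose (0.79 ± 0.16), and Mef2c, Tbx2 and Klf2 fell by 0.29, 0.48 and 0.27 on the log2 scale. Myocd itself, in the same list, had a log2 fold change of 0.16. Without 1 library Foxf1 held throughout, Kcna5, Mef2c and Klf2 lost the call whichever library was left out, and P2rx1 and Tbx2 lost it for 4 of the 6, with P2rx1 down to -0.31 without young TN. With the mitochondrial limit at 20% P2rx1 and Tbx2 were both at -0.29 and passed.

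Of 31 collagen and basement membrane genes tested, 9 fell and none rose with age, against 1.03% of all genes lower. Of the 31, 26 had a negative log2 fold change (median -0.26), beside 3808 of all 7649 genes. Col27a1, a fibrillar collagen gene not in that list, rose (1.02, edgeR adjusted p = 0.000893). Sparc, which encodes a collagen-binding glycoprotein of basement membranes (chr11:55394500-55423183), was at 1909, 1884 and 2305 CPM in the young TN, 3D and 14D libraries and at 1186, 1076 and 1318 in the aged ones. The 2 ages did not overlap, with a log2 fold change of -0.74 ± 0.07 SE (edgeR adjusted p = 4.15e-08). Col4a1 and Col4a2, the paired chains of type IV collagen, fell by 0.41 and 0.48 on the log2 scale; Col4a1 went from 595, 525 and 561 CPM to 443, 389 and 422, again with no overlap. Col18a1, a basement membrane collagen, fell by 0.52, Serpinh1, the collagen chaperone HSP47, by 0.38, and Postn, the matricellular protein periostin, by 0.55. Fn1 (fibronectin), at 100, 81.4 and 143 against 66.4, 35.8 and 63.7 CPM, fell by 0.84 (SE 0.16, edgeR adjusted p = 0.00116). Col1a2 and Col3a1, fibrillar collagen chains, fell by 0.48 and 0.52. With each library left out in turn, 2 of these 9 calls, Sparc and Fn1, held throughout and 7 were lost at least once. Without the young TN or the aged TN library Col1a2 stood at -0.25 and -0.26 and Col3a1 at -0.25 and -0.26, and neither passed, while Postn ran from -0.37 to -0.98. In pericytes, fitted alone, Sparc changed by -0.51, Fn1 by -0.50, Col4a1 by -0.56, Col4a2 by -0.75 and Col18a1 by -0.86. There Serpinh1 changed by -0.52, Col1a2 by -0.74, Col3a1 by -0.85 and Postn by 0.28, and none of the 9 passed. Postn alone of the 9 passed the test of a different age effect in the 2 classes, described below.

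Some of these are leading genes of fibroblasts, so their levels there are given too. Fibroblasts held Col3a1 at 15278, 9146 and 13779 CPM in young and 9623, 4413 and 6585 in aged libraries, and Fn1 at 3456, 2235 and 3087 against 2034, 1743 and 2344. Sparc was at 11530, 6421 and 10326 against 6007, 3310 and 4963 CPM in fibroblasts. Lowering the Dcn limit to 10 per 10000 left Col3a1 at a log2 fold change of -0.79 (edgeR adjusted p = 0.00073) and Fn1 at -0.56 (edgeR adjusted p = 0.073) in smooth muscle cells. The part of fibroblast RNA in these differences was not tested. Of 10 elastic fibre genes, Fbn1, the gene of fibrillin 1, fell (-1.01 ± 0.23), beside 1.03% of all genes lower. Its call was lost for 4 of the 6 libraries left out.

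**Figure D3:**
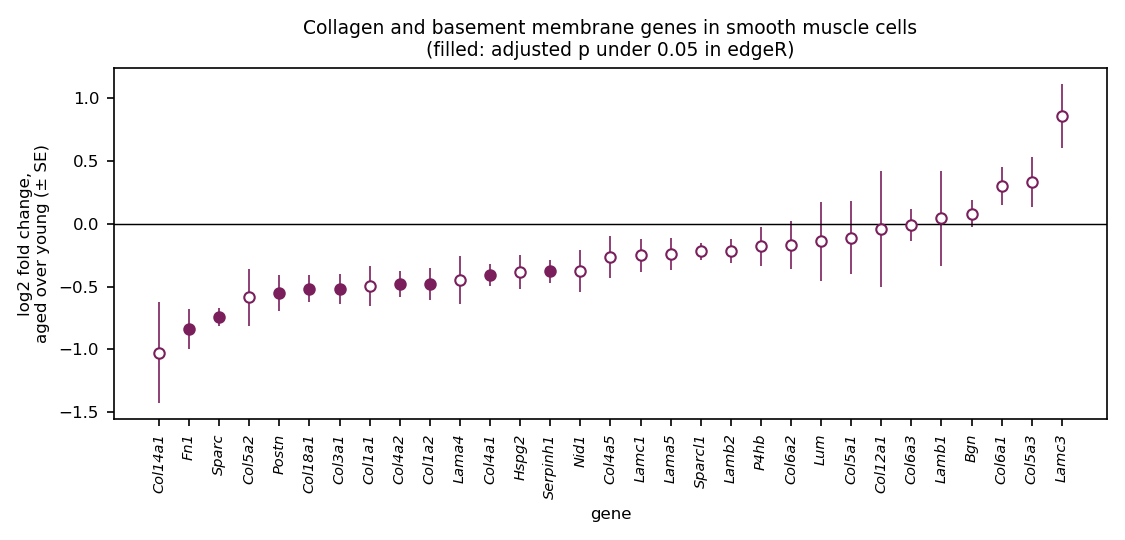
Log2 fold changes of aged over young (± SE, edgeR) for the 31 collagen and basement membrane genes tested in smooth muscle cells, sorted by size. Filled points passed an adjusted p under 0.05, and all 9 of them lie below 0.

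Among genes past the threshold at 50 CPM or more in the higher age, the one with the largest rise was Dpysl3, which encodes a cytoskeletal protein of the collapsin response mediator family (chr18:43320984-43438286). It was at 25.3, 12.1 and 10.5 CPM in the young TN, 3D and 14D libraries and at 103, 73.2 and 74.7 in the aged ones, resting on between 9 and 203 UMIs a library. Every aged library lay above every young one (log2 fold change 2.27 ± 0.19 SE, edgeR adjusted p = 2.19e-09). Ndrg1, a stress- and hypoxia-responsive gene (chr15:66929318-66969640), was at 21.5, 19.8 and 24.5 against 76.6, 74.8 and 74.7 CPM (1.82 ± 0.18, edgeR adjusted p = 6.81e-08). Fst, the gene of the activin antagonist follistatin, was at 13.7, 20.9 and 27.9 against 77.1, 28.0 and 50.5 CPM (1.67 ± 0.25, edgeR adjusted p = 8.81e-05), and its highest young and lowest aged libraries were 27.9 and 28.0. Leaving out the aged TN or the young TN library lowered the Fst change to 0.68, which no longer passed (edgeR adjusted p = 0.426 and 0.421).

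Apoe, the gene of apolipoprotein E, was at 24.0, 37.4 and 21.0 CPM in young and 68.5, 103 and 63.7 in aged libraries (1.52 ± 0.18). Lgals3, the gene of galectin 3, was at 37.3, 35.2 and 27.9 against 68.5, 99.7 and 81.3 (1.20 ± 0.18). Neither set of libraries overlapped, and both genes passed in every alternative that gave them an adjusted p. The other genes named by rule among the 12 largest rises were Iigp1, an interferon-inducible GTPase gene, Gstt1, a glutathione transferase gene, the tubulin gene Tuba4a, Abt1, the fibrillar collagen gene Col27a1, Ccl11, the gene of the chemokine eotaxin, and Foxf1. Their log2 fold changes ran from 1.23 down to 0.79, and the ages did not overlap for any of the 12, which the choice of the largest rises favours; over all genes 17.2% did not overlap. Leaving out each library in turn, 8 of the 12 passed throughout; beside Fst, Abt1 was lost without young 3D (0.71, and 1.80 without young TN), Ccl11 without young or aged 3D (0.84 and 0.85, and 1.48 without young TN) and Col27a1 without young or aged TN (0.75). Macrophages also express Apoe and Lgals3. The 4 immune markers beside Ptprc, led by Fcer1g, summed to 28.8, 29.7 and 18.6 CPM in young and 39.1, 40.5 and 33.0 in aged libraries, higher in every aged library. The part of immune RNA in the rise was not tested.

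By the same limits the largest fall was that of Pi16, a marker gene of adventitial and Dpp4+ fibroblasts, at 58.8, 41.8 and 85.0 CPM in young and 11.2, 31.1 and 30.8 in aged libraries (-1.60 ± 0.24). In fibroblasts Pi16 was at 2230, 2263 and 2729 against 1054, 1436 and 1580 CPM, and with the Dcn limit at 10 the change in smooth muscle cells was -0.98 (edgeR adjusted p = 0.0744). Ackr3, an atypical chemokine receptor gene (chr1:90203980-90216751), was at 194, 300 and 243 against 122, 84.1 and 136 CPM, with no overlap (edgeR adjusted p = 3.31e-05). Cdh6, a cadherin gene, was at 155, 127 and 116 against 90.3, 65.4 and 50.5 (-0.88 ± 0.14). Emb and Hacd1 fell by 1.16 and 0.84, Klhl23 by 0.82 and the imprinted noncoding RNA Meg3 by 0.76 on the log2 scale. The BMP target Id1 was at 334, 341 and 404 against 264, 137 and 218 CPM (-0.73 ± 0.12). The young and aged libraries did not overlap for these 12 either, chosen as the largest falls, beside 17.2% of all genes, and 9 of them passed with each library left out in turn. Pi16 was lost without young or aged TN (-0.93 without young TN), Klhl23 without 3 of the libraries, and Meg3 without young 3D; Meg3 stood at -1.18 without aged TN. With the mitochondrial limit at 20% Emb was at -0.68 and Klhl23 at -0.50, and both passed.

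**Figure D4:**
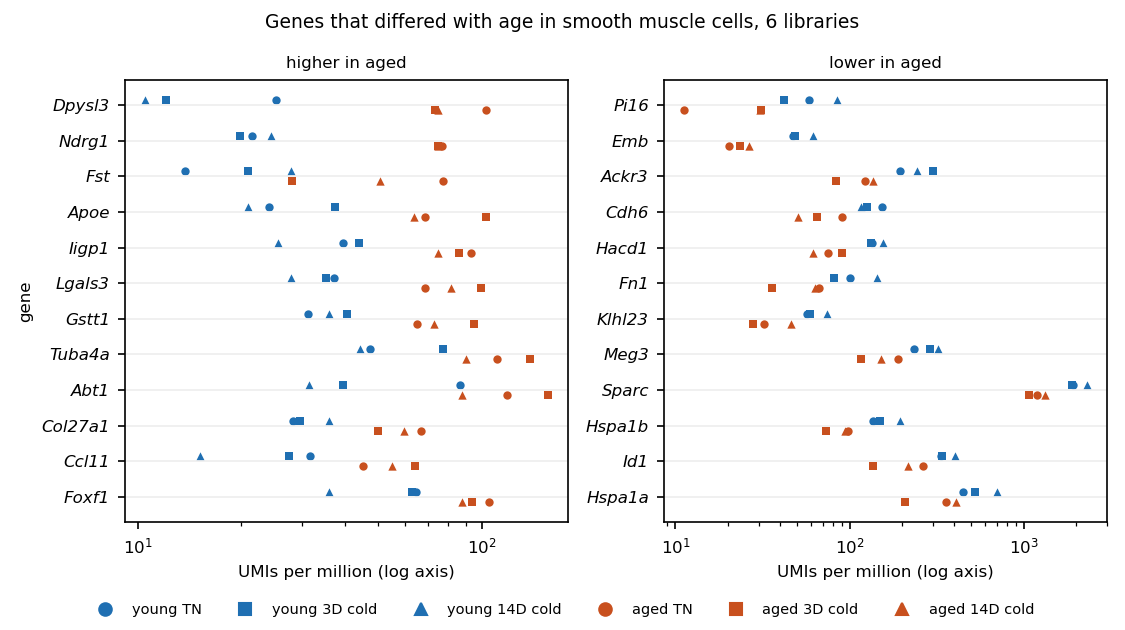
CPM (log axis) in smooth muscle cells of each library for the 12 genes with the largest rise (left) and the 12 with the largest fall (right) with age. Blue points are young and orange points aged libraries, with circles for TN, squares for 3D and triangles for 14D cold; the ages do not overlap in any row.

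As background to the lists of this paragraph, 1.96% of all genes were higher and 1.03% lower in aged. Of 30 genes of the PDGF and TGF-beta families, Tgfb1 (0.76 ± 0.17) and the BMP receptor gene Bmpr2 (0.51 ± 0.13) rose and Id1 fell. Of 12 Notch genes, the feedback inhibitor Nrarp fell (-0.53 ± 0.10), and Notch3 had a log2 fold change of 0.11. Of 28 genes of nitric oxide, cyclic nucleotide and G protein signalling, Rgs16 rose (0.98) and Rgs4 fell (-0.37). Of 18 clock and glucocorticoid genes 3 rose: the metallothionein genes Mt1 and Mt2 (0.47 and 0.58) and Cdkn1a, the gene of the cell cycle inhibitor p21, at 1585, 1436 and 1142 CPM in young and 2046, 1934 and 1835 in aged libraries (0.51 ± 0.08, edgeR adjusted p = 7.78e-05). Of 25 immediate early and dissociation genes, 1 rose (Fosl2, 0.44) and 4 fell: the heat shock genes Hspa1a, Hspa1b, Dnajb1 and Hspb1, by 0.72, 0.73, 0.45 and 0.27. These genes also answer to tissue digestion, whose part was not tested. Of the calls in this paragraph, Id1, Nrarp, Mt1, Cdkn1a, Fosl2, Hspa1a and Hspa1b passed with each library left out in turn, and the others were lost at least once, Rgs16 reaching 0.62 without young TN, Rgs4 -0.22 and Hspb1 -0.15 without young 14D. At the 20% mitochondrial limit Bmpr2 was at 0.33 and passed, and Hspb1 was at -0.20 (edgeR adjusted p = 0.0607).

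Of 25 respiratory chain genes, 2 fell, Cox4i2 (-0.43) and Ndufa4l2 (-0.41), both known for their induction by hypoxia. A negative log2 fold change was found for 22 of 25 (median -0.13). Of all 7649 genes, 1.96% were higher and 1.03% lower in aged, and 3808 had a negative log2 fold change. None of 18 MHC class I and interferon genes passed (median 0.22, with 15 positive), and of 12 chemokines and cytokines 1 rose, Ccl11 (0.95). Of 15 genes of the modulated smooth muscle phenotype, seen in vessel disease, Lgals3 rose and Fn1 fell; of 9 growth-linked imprinted genes, Plagl1 rose (0.88) and Meg3 fell. Of 14 adipogenic and beige genes, 1 rose, the fatty acid transporter gene Cd36 (0.56 ± 0.11). Of these calls, Ndufa4l2, Lgals3 and Fn1 passed with each library left out in turn and the others did not; Plagl1 was at 1.35 without young TN. Ucp1 had 2 UMIs over all 6 libraries.

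Of genes that the study discusses for age, 10 were listed; several of them were chosen by the study on these same libraries, so their direction is not independent evidence. In smooth muscle cells 7 could be tested: Pltp (1.59), Lgals3 (1.20) and Cd36 (0.56) rose, Meg3 (-0.76) and Postn (-0.55) fell, and Cd9 (0.04) and Gpc3 (-0.92) did not pass. Lgals3 alone of these passed with each library left out in turn, and Pltp, at 1.04 without young TN, did not pass without either TN library. Gpnmb, Itm2a and Npr3 had 13, 35 and 2 UMIs over all 6 libraries and did not pass the filter on low counts.

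Age effects were set against those of the 516 pericytes, the mural cells of capillaries, chosen by the same limits on UMIs, mitochondrial share, Dcn and the endothelial and immune genes, with at least 3 UMIs of Kcnj8 and Higd1b together and no limit on Myh11, Acta2 or Tagln. The difference of the 2 age effects was tested by edgeR's quasi-likelihood F test over both classes of all libraries, blocked by library. It passed for 7 of 7143 genes (0.098%), 2 with a more positive (0.028%) and 5 with a more negative (0.07%) age effect in smooth muscle cells, and 379 genes (5.31%) had an unadjusted p under 0.05. Tested alone, pericytes had 7 of 6328 genes that differed with age (0.111%), 6 higher (0.0948%) and 1 lower (0.0158%) in aged. Pericyte sums held between 163332 and 472640 UMIs from 42 to 113 cells, fewer in each library than those of smooth muscle cells. The counts of calls in the 2 classes therefore cannot be set side by side. Ackr3 (-1.40, edgeR adjusted p = 0.0324), Iigp1 (0.99, edgeR adjusted p = 0.0463) and Rgs16 (1.68, edgeR adjusted p = 0.00072) passed in pericytes too. Dpysl3 in pericytes was at 40.2, 19.4 and 17.1 CPM in young and 31.0, 18.0 and 24.5 in aged libraries, so that its age effect was 2.45 ± 0.42 larger in smooth muscle cells (log2, edgeR adjusted p = 0.0113). These pericyte values rest on between 4 and 19 UMIs a library. Fst in pericytes was at 478, 380 and 440 against 479, 225 and 245 CPM, and its age effect differed by 1.95 ± 0.29 (edgeR adjusted p = 0.00391).

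The 5 genes with a more negative age effect in smooth muscle cells were Ccl2, Hspa1a, Phlda1, Postn and Meg3. Ccl2, the gene of a monocyte chemokine, averaged 37.2 CPM in young and 42.0 in aged smooth muscle cells, and 63.1 and 204 in pericytes (difference -1.88 ± 0.33, edgeR adjusted p = 0.0113). Hspa1a averaged 556 and 324 in smooth muscle cells against 592 and 739 in pericytes (-1.16 ± 0.18, edgeR adjusted p = 0.00533). Meg3 averaged 282 and 153 against 1477 and 1550 (-0.997 ± 0.18, edgeR adjusted p = 0.0113). No gene of the contractile or receptor lists was among the 7, beside 0.098% of all 7143 genes. At that share lists of this size would hold hardly any call. With each library left out in turn, Ccl2 passed throughout, Dpysl3 and Fst lost the call without young TN or without aged TN, and Hspa1a, Phlda1, Postn and Meg3 lost it without young 14D or without aged 14D.

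Temperature was tested in the same fit with age as a term. In cold, the receptor genes Adrb1, Npy1r and Trpv1 and the myosin regulators Ppp1r14a and Mylk were lower in smooth muscle cells, and the lipid genes Fabp4 and Cd36 were higher; with the mitochondrial limit at 20%, Trpv1 and Mylk did not pass, and Npy1r (-0.33), Ppp1r14a (-0.28) and Cd36 (0.38) passed with smaller changes. The test over TN, 3D and 14D passed for 136 genes (1.78%). The mean of 3D and 14D against TN passed for 130 genes (1.7%), 43 higher (0.562%) and 87 lower (1.14%) in cold. These counts include 1 gene of the rule, Dcn, whose test is not a result.

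Adrb1, the gene of the beta-1 adrenergic receptor (chr19:56722199-56733113), was at 40.8 and 34.5 CPM in the young and aged TN libraries. In cold it was at 9.90 (3D) and 2.33 (14D) in young and at 7.79 and 13.2 in aged libraries, all below TN (log2 fold change -2.36 ± 0.31 SE, edgeR adjusted p = 1.72e-05). These values rest on 95 and 68 UMIs at TN and on 9, 2, 5 and 6 in cold. Over the 15 alternatives in which Adrb1 was fitted its change lay between -3.10 and -1.74. It passed in each of them that gave it an adjusted p, which DESeq2 withholds from genes of low counts. Npy1r, the gene of the Y1 receptor for neuropeptide Y (chr8:66697192-66706792), was at 273 and 290 CPM at TN, 190 and 193 in young 3D and 14D and 185 and 213 in aged 3D and 14D, again with no overlap (-0.55 ± 0.10, edgeR adjusted p = 0.0024). Trpv1 (chr11:73234292-73261242), whose window was shown above, was at 51.1 and 41.6 CPM at TN, 24.2 and 18.7 at 3D and 30.3 and 39.6 at 14D (-0.81 ± 0.20, edgeR adjusted p = 0.0319). With the mitochondrial limit at 20%, the Trpv1 change shrank to -0.23 (edgeR adjusted p = 0.493), and the call was also lost without 5 of the 6 libraries in turn. Npy1r lost its call without young or aged TN, at changes between -0.51 and -0.59 over all 6.

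Of 16 receptor genes tested these 3 fell, against 1.14% of all genes lower in cold, and none rose, with a median of -0.16; the others include Adra1a (-0.62), Adra1b (0.07), Ednra (0.10) and P2rx1 (-0.17). Of 13 genes of myosin and its regulation, Myh11 left out, 2 fell. Ppp1r14a, which encodes the myosin phosphatase inhibitor CPI-17 (chr7:29289308-29293801), was at 724 and 597 CPM at TN, 504 and 542 in young 3D and 14D and 386 and 510 in aged 3D and 14D (-0.47 ± 0.09, edgeR adjusted p = 0.00192). Mylk was at 1916 and 1801 at TN and between 1352 and 1570 in cold (-0.32 ± 0.08, edgeR adjusted p = 0.0169); at the 20% mitochondrial limit its change was -0.14 (edgeR adjusted p = 0.227). For both genes the cold libraries lay below both TN libraries. Ppp1r14a lost its call without young TN, and Mylk without 4 of the 6 libraries in turn.

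For the lists of this paragraph, the share of all genes lower in cold was 1.14%. Of 25 filament genes, Acta2 and Tagln left out, Cnn1 fell, with a list median of -0.12. Cnn1, the gene of calponin 1 (chr9:22099216-22109630), was at 82.0 and 68.0 CPM at TN, 16.5 and 23.3 in young 3D and 14D and 35.8 and 63.7 in aged 3D and 14D (-1.31 ± 0.22, edgeR adjusted p = 0.000656). The aged 14D library was close to TN, and at the 20% mitochondrial limit the change was -0.44 (edgeR adjusted p = 0.00372). Without young TN the Cnn1 change was -0.52 and did not pass (edgeR adjusted p = 0.776), and without aged TN it was -2.10. Acta2, Tagln and Myh11 are given above. Of 25 calcium and channel genes Pln fell, the gene of phospholamban, which holds back the calcium pump of the sarcoplasmic reticulum; it was at 256 and 216 CPM at TN and between 141 and 202 in cold (-0.56 ± 0.12, edgeR adjusted p = 0.00756), and at the 20% limit -0.23 (edgeR adjusted p = 0.173). Without young TN the Pln change was -0.33 (edgeR adjusted p = 0.806), and the call was lost without young 3D too. Over all genes, 34 passed for cold against TN without young TN, 54 without young 3D, 78 without aged 3D and 213 without aged 14D.

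Fabp4 (chr3:10204088-10208576) was at 6020 and 6074 CPM in the young and aged TN libraries and at 9249, 9943, 9620 and 9451 in young 3D, young 14D, aged 3D and aged 14D (0.64 ± 0.07, edgeR adjusted p = 2.75e-07). The cold libraries stood above TN with no overlap. Cd36 was at 115 and 182 CPM at TN, 184 and 196 in young and 240 and 288 in aged cold libraries (0.60 ± 0.11, edgeR adjusted p = 0.00192), and was higher in cold within each age; the Cd36 call was lost without young TN (0.52, edgeR adjusted p = 0.261), and Fabp4 passed with each library left out in turn. Endothelial cells, which carry the most Fabp4 here, had 34980 and 40894 CPM at TN and between 41269 and 57013 in cold. Pericytes held Fabp4 at 11290 and 16474 CPM at TN and between 19094 and 32649 in cold. The part of free RNA in the Fabp4 difference was not tested. Of the 14 adipogenic genes, these 2 rose in cold, beside 0.562% of all genes. Pparg had a log2 fold change of 0.11 and Prdm16 of -0.10.

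**Figure D5:**
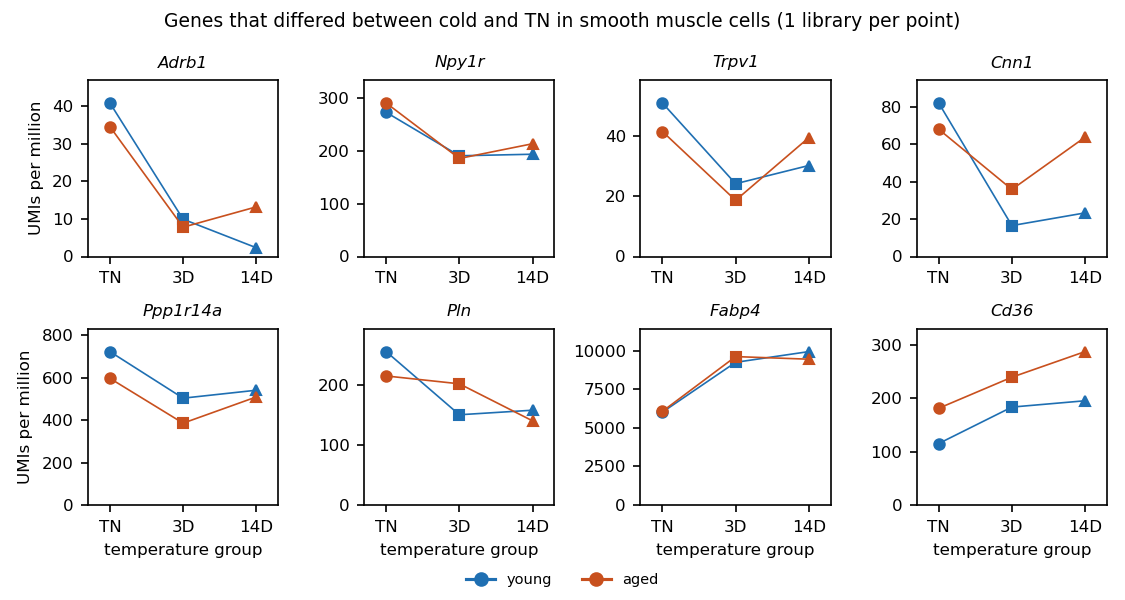
CPM in smooth muscle cells for 8 genes by temperature (TN, 3D and 14D cold), with young libraries in blue and aged in orange and 1 library per point. Adrb1, Npy1r and Ppp1r14a lie lower in all 4 cold libraries than at TN, and Fabp4 lies higher.

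The genes named by rule for 14D cold against TN were, upward, Igfbp6, Dpt, Rnase4, Tnxb, Clec3b, Eps8 and Mgst1, with Dcn, a gene of the selection rule, given no test. Dpt, the gene of the matrix protein dermatopontin, was at 29.6 and 18.3 CPM at TN, 41.8 and 49.8 at 3D and 65.2 and 43.9 at 14D (young and aged). Igfbp6, an insulin-like growth factor binding protein gene, was at 39.1 and 18.3 at TN, 38.5 and 38.9 at 3D and 94.3 and 39.6 at 14D. Dpt, Igfbp6, Tnxb and Clec3b were at between 988 and 3030 CPM in the fibroblasts of every library, and the fibroblast marker sum in smooth muscle cells, given above, was higher in cold at both ages. With the Dcn limit at 10, Dpt was at 0.59 for cold against TN (edgeR adjusted p = 0.373), Igfbp6 at 0.43 (edgeR adjusted p = 0.596) and Clec3b at -0.03 (edgeR adjusted p = 0.983), while Mgst1, a microsomal glutathione transferase gene, was at 0.67 (edgeR adjusted p = 0.0142). The part of fibroblast RNA in these genes was not tested. For cold against TN, Igfbp6, Dpt, Rnase4, Eps8 and Mgst1 each lost the call without at least 1 library, and at the 20% mitochondrial limit Eps8 was at 0.46 (edgeR adjusted p = 0.116) and Dpt at 0.61 (edgeR adjusted p = 0.0473).

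Downward at 14D were Hilpda, Plekhf1, Otud1, Txndc11, Leng8, Fbxo33, Cnn1 and Maff. Hilpda, a hypoxia-induced lipid droplet gene, was at 64.8 and 59.9 CPM at TN, 49.5 and 79.4 at 3D and 15.1 and 19.8 at 14D, so that only the 14D libraries were low (-1.90 for 14D, edgeR adjusted p = 0.000454 over temperature). Txndc11, the gene of a thioredoxin domain protein of the endoplasmic reticulum, was at 438 and 514 at TN and between 139 and 329 in cold (-1.18 at 14D, edgeR adjusted p = 4.5e-06). At 3D, among genes at 50 CPM or more, the largest rises were Nr1d2, Idh1, Tspan4 and the nuclear RNA Neat1, and the largest falls Ctgf, Cnn1, Lcmt2 and Otud1. Neat1 was at 579 and 875 CPM at TN and between 1008 and 1534 in cold (0.92 at 3D and 0.78 at 14D, edgeR adjusted p = 4.5e-06). Ctgf, a matricellular gene driven by tension and TGF-beta, was at 54.1 and 87.2 at TN, 15.4 and 31.1 at 3D and 45.4 and 17.6 at 14D (-1.65 at 3D, edgeR adjusted p = 0.00189). For cold against TN, Txndc11, Fbxo33, Otud1 and Neat1 passed with each library left out in turn, Txndc11 at -0.68 without young TN. The calls of Idh1 and Tspan4 were lost at least once, at 0.68 without young 14D and 0.54 without aged TN. At the 20% mitochondrial limit Fbxo33 was at -0.55 and Plekhf1 at -0.54, and both passed. Without young TN the changes of Hilpda (-0.56), Plekhf1 (-0.59), Lcmt2 (-0.52), Leng8 (-0.69) and Maff (-0.49) did not pass, nor did that of Ctgf (-0.92) without aged TN; Ctgf was at -2.00 without young 14D.

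Of 18 clock and glucocorticoid genes, 7 passed the test over the 3 temperatures, beside 1.78% of all genes. Dbp, an output gene of the circadian clock, was at 4.29 and 2.03 CPM at TN, 34.1 and 20.2 at 3D and 4.66 and 13.2 at 14D (3.04 at 3D, edgeR adjusted p = 0.000925), resting on between 4 and 31 UMIs a library. Nr1d1 and Nr1d2, clock repressor genes, were highest at 3D at both ages (1.03 for Nr1d2). Dbp was highest at 3D in pericytes too, at 63.0 and 66.0 CPM against 12.7 and 11.9 at TN. The hour of collection is not given in the sources used here, and its part was not tested. In the same list of 18 genes, Dbp and the glucocorticoid target Tsc22d3 (0.60) rose in cold, beside 0.562% of all genes. Mt1 (-0.35) and Mt2 (-0.38) fell, beside 1.14% of all genes. None of these 4 calls held with each library left out in turn; without young TN, Tsc22d3 was at 0.28, Mt1 at -0.17 and Mt2 at -0.06, and without aged 14D Dbp was at 1.60.

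The remaining lists held few calls for cold against TN. Across all genes tested, 0.562% were higher and 1.14% lower in cold. Of 31 matrix genes Col5a3 (0.80) and Nid1 (0.66) rose and none fell; of 12 Notch genes Nrarp rose (0.40) and Hes1 fell (-0.45). Of 28 G protein and cyclic nucleotide genes Rgs5 rose (0.46) and Rgs2 (-0.57) and Rgs7bp (-0.45) fell. Without young TN Rgs5 was at 0.10 (edgeR adjusted p = 0.99), and at the 20% mitochondrial limit Rgs5 was at 0.20 (edgeR adjusted p = 0.482) and Rgs7bp at -0.18 (edgeR adjusted p = 0.311). Nid1 (0.44) and Mmp2 (0.71) did not pass at that limit either (edgeR adjusted p = 0.0582 for both). Of 21 transcription regulators Klf2, a flow-responsive factor, rose (0.33), and of 30 PDGF and TGF-beta genes Ctgf fell (-1.29). Of 15 modulated-phenotype genes S100a4 (0.53) and Mmp2 (0.98) rose and Il6 fell (-0.47), the last also the one call among 12 chemokines and cytokines. Of 25 immediate early genes Egr1 fell (-0.43), and 7 of the 25 passed the test over the 3 temperatures, beside 1.78% of all genes, Fos and Jun being lowest at 3D (-0.48 and -0.41). Of the calls in this paragraph for cold against TN, S100a4 passed with each library left out in turn and the others were lost at least once; Egr1 was at -0.16, Hes1 at -0.29 and Mmp2 at 0.56 without aged TN, and Il6 at -0.29 without young 14D. No elastic fibre, interferon, respiratory chain or imprinted gene passed for cold against TN, out of 10, 18, 25 and 9 tested.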

How the data were processed

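The deposited files hold UMI counts per gene and barcode, whole numbers without normalization, which the authors made with Cell Ranger 3.1.0 on the mm10 transcriptome for barcodes called as cells. All 31053 gene rows of the 6 libraries were used, and gene spans are those of GRCm38. The members of every class and all gene lists were chosen with earlier results of these data known. No doublet caller was run; the limits on genes of other cell types were the treatment of doublets.

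UMIs were summed per library and class. edgeR 4.0.16 (R 4.3.3) fitted temperature and age to the 6 sums (glmQLFit, TMM factors, filterByExpr, Benjamini-Hochberg threshold 0.05), which leaves 2 residual degrees of freedom, and DESeq2 1.42.0 was an alternative. In that edgeR fit the spread pooled over genes entered with a median of 30.7 prior degrees of freedom, so the p-values rest mostly on it. The fit on 12 sums had library as a block. CPM are UMIs per 1000000 UMIs of the class sum without TMM factors, which the fold changes include. The 5 genes of the selection rule that passed the filter stayed in the fit across all genes and are left out of list counts and medians. A gene list is given by its calls and median log2 fold change. The tests were tested on simulated data, and no result of that check is given here. Cells and shares were handled in Python 3.11.15 with scipy 1.17.1; intervals are Clopper-Pearson at 95% and permutation tests run over libraries. Fibroblasts had at least 30 Dcn UMIs per 10000, and endothelial cells at least 3 of Cdh5 and Pecam1 and none of Ptprc. Genes named are, for age, the 12 largest rises and falls among genes past the threshold with 1 direction at all 3 temperatures and at least 50 CPM in the higher age; for temperature, the 8 largest each way at 14D and the 4 at 3D, with 1 direction at both ages and at least 50 CPM; for the class comparison, the 5 largest each way with at least 50 CPM; the called members of each list; and the 15 highest ratios over pericytes with at least 100 CPM. Genes given a log2 fold change without passing were picked after seeing the values.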

Additional observations from a re-analysis of the deposited data

Results flagged for a closer look

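The age effect differed between smooth muscle cells and pericytes of the same libraries for 7 genes (edgeR's quasi-likelihood F test of the difference, adjusted p between 0.00391 and 0.0191). The differences of the log2 fold changes were 2.45 for Dpysl3, 1.95 for Fst, -1.88 for Ccl2, -1.16 for Hspa1a, -1.12 for Phlda1, -1.02 for Postn and -0.997 for Meg3. Phlda1, a stress-induced gene, averaged 205 CPM in young and 141 in aged smooth muscle cells, against 570 and 850 in pericytes. Postn averaged 184 and 110 in smooth muscle cells, against 1268 and 1310 in pericytes.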

How the results depend on the processing

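At an adjusted p under 0.05, 229 genes passed for age, 136 for temperature, 130 for cold against TN and 7 for the difference of age effects from pericytes. DESeq2 passed 26, 12 and 14 for the first 3, all shared with edgeR's. With no filter on low counts 225 passed for temperature and 12 for the difference from pericytes. Without the other factor as a term 29 passed for age, 0 for temperature (432 at an unadjusted p under 0.05 in edgeR) and 2 for cold. At 2000 UMIs per cell 151, 65 and 66 passed. With cells thinned to 1000 UMIs and equal in number 1, 2 and 2 passed, and Itga7 reversed with age to 0.31. With limits relative to depth 130, 78 and 67 passed, and Ccl11, not called for cold, went to 2.15. With the Dcn limit at 10, 86 passed for temperature and 79 for cold. With the mitochondrial limit at 20%, chosen after seeing the data, 583, 290 and 251 passed, sharing 206, 115 and 105 with the counts above. With it at 5%, which leaves few cells, 1, 0 and 0 passed (32, 53 and 33 at an unadjusted p under 0.05 in edgeR); there the age changes of Cdkn1a (-0.055), Col3a1 (0.20), Fosl2 (-0.10), Hspa1a (0.30), Id1 (0.78), Klf2 (0.53) and Postn (1.07) and the cold changes of Cd36 (-0.32), Mylk (0.17), Nrarp (-0.0206), Ppp1r14a (0.0379), Rgs5 (-0.20) and S100a4 (-0.81) reversed, and the cause was not tested. Leaving out 1 library gave between 99 (without young 3D) and 200 calls for age, between 77 (young TN) and 237 (aged 14D) for temperature, between 34 (young TN) and 213 (aged 14D) for cold, and between 6 and 43 (aged TN) for the difference from pericytes; without young 3D, temperature had 83 and cold 54, without aged 3D, age had 132 and cold 78, and without young TN, 42 genes differed from pericytes. Counted as pairs of a gene and a setting, single genes kept direction and call in 602 pairs for age, 417 for cold and 58 for the difference from pericytes and lost the call with the same direction in 257, 264 and 12. Age and cold pairs of the same direction for which DESeq2 gave no adjusted p were counted as kept. DESeq2 gave one to 5128 genes for age and to 1866 for cold, so the 602 and 417 overstate the calls kept. No paired analysis was possible because the labels carry no replicate numbers, with 1 library for each age and temperature; the age fit matches libraries by its temperature term and the comparison with pericytes by its library block. The fits had 2 residual degrees of freedom, and the smallest library had 82 smooth muscle cells.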
